A study of Mus musculus with 16 samples.

Results

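The genes described here belong to enzyme families that erase acetyl groups or write or erase methyl groups on histones, or act on DNA methylation. Some members act on other substrates or have no established activity. They were taken as every gene of the array whose symbol starts with Hdac, Sirt or Kdm and a digit, with Kmt2 or with Dnmt, together with Ezh1, Ezh2 and Tet1 to Tet3. The rule found 51 of the 19938 named genes and uses no difference between groups. The 51 hold 4 class I, 4 class IIa, 2 class IIb and 1 class IV histone deacetylase, 7 sirtuins, 2 LSD and 16 JmjC demethylases, 5 KMT2 and 2 EZH methyltransferases, 4 DNA methyltransferase genes and 3 TET dioxygenases. The last member, Dnmt3aos, is an antisense RNA of Dnmt3a and no enzyme. Of the 51, 6 had more than 1 probe set, and the set with the highest mean stands for the gene.

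Sorted mouse dendritic cells gave RNA for 16 arrays (Affymetrix Mouse Gene 1.0 ST), whose signal is per probe set and not per length, so only 1 gene at a time is compared between arrays. Cells came from activated cultures, in which bone marrow was grown with 5% Flt3l for 9 days and then given gamma interferon and, for 4 hours, LPS, or straight from spleens of mice at homeostasis. The gamma interferon step is given as 16 hours in one label and as 22 hours in another. From both sources a CD24+ sort, used for cDC1, and a CD172a+ sort, used for cDC2, were taken. Mice were Ciita -/- (KO) or Ciita +/+ (WT), and all of them, controls included, were B6 and carried Zbtb46 GFP/+, a reporter allele of a classical dendritic cell factor, so 1 Zbtb46 copy bore GFP in every group. The 8 groups (KO and WT of cultured CD24+, cultured CD172a+, spleen CD24+ and spleen CD172a+ cells) held 2 arrays each, from 8 mice that each gave both subsets. Ages and sexes are not given in the labels, and no culture was left unstimulated, so growth in Flt3l, activation and source cannot be told apart.

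Histone deacetylases take acetyl groups off lysines and mostly work inside corepressor complexes. The sirtuins use NAD as cosubstrate, and several of them also remove acetyl groups. LSD and JmjC demethylases remove methyl groups that the KMT2, EZH and other methyltransferases place: KMT2 enzymes mark promoters and enhancers in use, and Ezh2 and Ezh1 are the catalytic subunits of Polycomb repressive complex PRC2. DNA methyltransferases methylate cytosine and the TET enzymes oxidize that methyl group. In myeloid cells several of these genes are known to respond to microbial products, Kdm6b being the textbook case in LPS-treated mouse macrophages.

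All levels are log2 signal minus the median gene of the same array, so 0 is the median gene of that array, and values for 4 arrays run KO 1, KO 2, WT 1, WT 2. The median over the named genes was 6.89 to 6.97 in culture and 7.37 to 7.39 in spleen as deposited, so centring raised every culture minus spleen change by 0.46 in CD24+ and by 0.43 in CD172a+ cells. Within a source it moved values far less, and 1 call there, that of Hdac4 between spleen subsets (-0.16), was lost without it. Cultured and spleen mice also differed in sex-linked transcripts. Xist, the X inactivation RNA, was between -1.91 and -1.62 in the 8 culture arrays, against 4.43 to 5.06 in the 8 spleen arrays, and the Y-linked Eif2s3y was between 1.18 and 1.89 in culture and between -3.55 and -3.37 in spleen. By these transcripts the culture arrays read as male and the spleen arrays as female, so sex and source cannot be told apart. In culture Xcr1, a cDC1 receptor, was at 2.64 to 3.94 in CD24+ arrays and at -0.70 to -0.29 in CD172a+ arrays, and Sirpa, which encodes CD172a, was at 1.45 to 2.23 in CD24+ arrays and at 4.16 to 4.41 in CD172a+ arrays. The 10 cDC2 markers averaged 0.39 to 0.65 in cultured CD172a+ arrays, against 2.99 to 3.06 in spleen CD172a+ arrays, and 9 of the 10 were lower in culture. Culture CD24+ KO 2 stood apart, with Xcr1 at 2.64 and Sirpa at 2.23, against 3.47 to 3.94 and 1.45 to 1.49 in the other 3 cultured CD24+ arrays. Neutrophil markers averaged from -1.03 to 0.93 over the spleen CD24+ arrays, with S100a8 highest in KO 2. In bulk RNA, fewer cells of a type and less RNA per cell cannot be told apart.

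Between cultured and spleen cells, enzymes moved in both directions. Among classes of several genes, only the class II deacetylases and the LSD demethylases were called one way in every gene and both subsets. The other classes held genes that went either way or were not called, Sirt4 and Sirt7 being lower in both subsets. All 6 class II deacetylases, Dnmt1, Dnmt3a and Dnmt3b, and Tet1 were lower in culture in both subsets, while both LSD demethylases, Ezh2 and the sirtuins Sirt1, Sirt2 and Sirt6 were higher in both. In CD24+ cells 21 members were higher in culture and 20 lower (limma on all 16 arrays, here 4 cultured against 4 spleen, adjusted p under 0.05 over all genes), and in CD172a+ cells 19 were higher and 26 lower. Of all 19938 genes, 47.1% were higher and 29.5% lower in CD24+ cells, and 49.4% were higher and 29.5% lower in CD172a+ cells. Called either way were 41 of the 51 members in CD24+ and 45 of the 51 in CD172a+ cells, against 76.6% and 78.9% of all genes. A group mean above the array median was found for 48 of the 51 members, against 11666 of the 19938 genes. The shares of all genes thus include more genes of low signal. Whether the members' shares stand apart from those of genes of like signal was not tested. The median change was -0.03 over the 51 members and 0.13 over all genes in CD24+ cells, and -0.18 and 0.15 in CD172a+ cells. Without centring, 12 members were higher and 31 lower in CD24+ cells, and 11 were higher and 33 lower in CD172a+ cells, a share of higher calls of 27.9% and 25%, against 51.2% and 42.2% with it. For all genes the share of higher calls was 17.4% and 21.6% without centring and 61.5% and 62.6% with it.

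**Figure D1:**
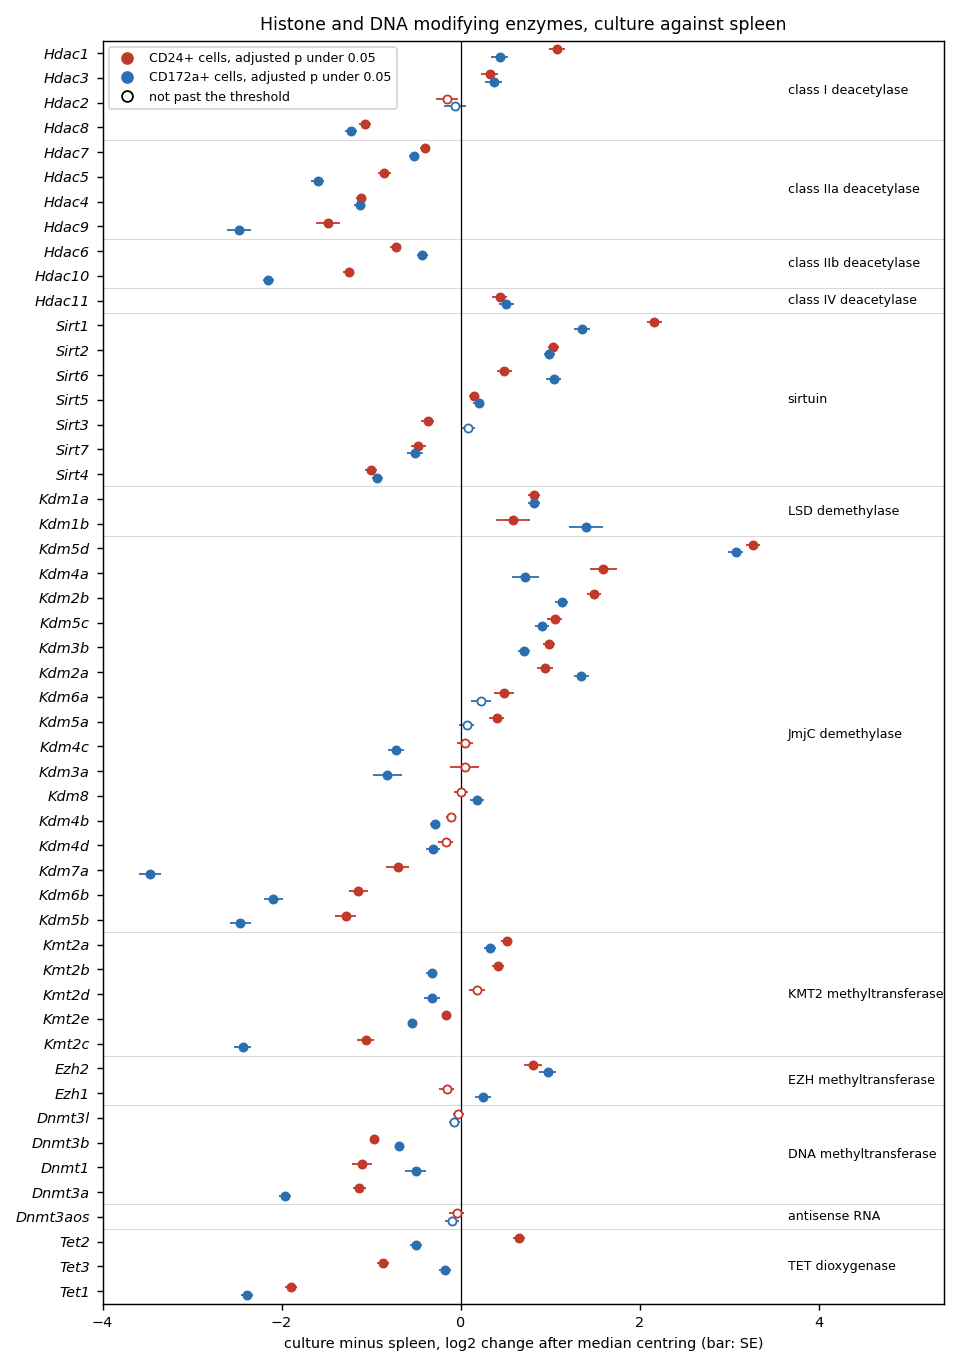
Culture minus spleen log2 change of the 51 members by class, after centring each array on its median gene. Red circles are CD24+ cells and blue circles CD172a+ cells (4 arrays against 4), bars are standard errors, and open circles did not pass the adjusted p of 0.05. Class II deacetylases and Dnmt1, Dnmt3a and Dnmt3b lie left of 0, LSD demethylases lie right of it, and Kdm7a has the largest gap between subsets.

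In both subsets 17 members were higher and 19 lower in culture, against 41.3% and 23.4% of all genes. Kmt2b and Tet2, 2 of the 51, were higher in CD24+ and lower in CD172a+ cells, as were 1.41% of all genes, and 3 members (Hdac2, Dnmt3l and Dnmt3aos) passed in neither, as did 11.9% of all genes. At least 2-fold changes were found for 7 higher and 11 lower members in CD24+ cells and for 6 higher and 11 lower members in CD172a+ cells. Of all genes, 6.59% were higher and 8.31% lower by that measure in CD24+ cells, and 6.88% and 10.1% in CD172a+ cells. The 4 cultured arrays lay wholly above the 4 spleen arrays for 20 members and wholly below them for 20 in CD24+ cells, and for 17 and 24 members in CD172a+ cells. Over all genes the same was true of 43.2% and 26.6% in CD24+ and of 46.2% and 27.6% in CD172a+ cells.

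Class IIa deacetylases, which shuttle between nucleus and cytoplasm and bind MEF2 factors, were lower in culture in 4 of 4 genes in both subsets. Hdac9 read 1.32, 0.53, 1.32 and 1.26 in cultured CD24+ arrays, against 2.54, 2.82, 2.48 and 2.51 in spleen CD24+ arrays. In CD172a+ cells it read -0.19, -0.03, -0.25 and -0.21 in culture and 2.31, 2.46, 2.28 and 2.19 in spleen. Every cultured array lay below every spleen array of its subset, and the differences were -1.48 ± 0.13 (SE; limma adjusted p = 7.93e-07) and -2.47 ± 0.13 (SE; limma adjusted p = 6.58e-09), or 2.79-fold and 5.56-fold lower. Within the cultured CD24+ arrays KO 2 was the low one, and without it the difference in CD24+ cells was -1.28. Hdac5 was lower in culture by 1.81-fold in CD24+ and by 3.03-fold in CD172a+ cells, and Hdac7, the member known for its role in thymocytes and endothelium, changed least (-0.40 ± 0.052 and -0.52 ± 0.052). Hdac4 fell by 2.16-fold and 2.19-fold on the chosen probe set, whereas its other probe set gave 0.19 and -0.28. Class IIa genes kept this direction without centring and after quantile normalization.

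Both class IIb genes were lower in culture too. Hdac10, a cytoplasmic deacetylase that acts on polyamines, read 0.60, 0.46, 0.66 and 0.57 in cultured CD24+ arrays and 1.77, 1.84, 1.87 and 1.80 in spleen CD24+ arrays. In CD172a+ cells its values were 0.52, 0.38, 0.46 and 0.41 in culture, against 2.62, 2.50, 2.53 and 2.71 in spleen. No arrays overlapped between sources, and the spleen CD172a+ arrays were the highest of the 16; the differences were -1.25 ± 0.061 (SE; limma adjusted p = 3.65e-09) and -2.15 ± 0.061 (SE; limma adjusted p = 2.32e-11). Hdac6, the X-linked tubulin deacetylase, was lower by 1.65-fold in CD24+ and 1.34-fold in CD172a+ cells.

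The class I genes split. Hdac1, a catalytic subunit of the NuRD and Sin3 complexes, read 4.43, 4.06, 4.26 and 4.30 in cultured CD24+ arrays and 3.37, 3.19, 3.17 and 3.01 in spleen CD24+ arrays, a difference of 1.08 ± 0.091 (SE; limma adjusted p = 4.33e-07). In CD172a+ cells the values were 3.74, 3.41, 3.87 and 3.73 in culture and 3.28, 3.32, 3.20 and 3.23 in spleen, a difference of 0.43 ± 0.091 (SE; limma adjusted p = 8.29e-04) that was 0.0085 without centring. A further probe set of Hdac1 gave 1.09 and 0.46. Hdac8, on the X chromosome, went the other way, -1.07 ± 0.067 in CD24+ and -1.23 ± 0.067 in CD172a+ cells. Hdac2, the close paralogue of Hdac1, did not pass (intervals of -0.42 to 0.11 and -0.33 to 0.21). Hdac3, the subunit of the NCoR and SMRT corepressors, was higher by 0.32 and 0.37, and gave -0.14 and -0.056 without centring. Hdac11, the class IV gene, was higher by 0.43 and 0.51 with centring, and gave -0.028 and 0.086, past the threshold in neither, without it.

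Among the sirtuins, Sirt1, the nuclear deacetylase of histones and of NF-kB, had the largest change of an autosomal enzyme in CD24+ cells. Its levels were 4.31, 4.37, 4.52 and 4.30 in cultured CD24+ arrays and 2.13, 2.26, 2.07 and 2.40 in spleen CD24+ arrays, 4.47-fold higher (2.16 ± 0.085, limma adjusted p = 5.03e-10). In CD172a+ cells they were 3.72, 3.68, 3.91 and 3.62 in culture and 2.46, 2.45, 2.26 and 2.33 in spleen, 2.56-fold higher (1.36 ± 0.085, limma adjusted p = 2.54e-08). All 8 cultured arrays exceeded all 8 spleen arrays. Sirt2, mainly cytoplasmic, was higher by 1.03 ± 0.061 and 0.99 ± 0.061. Sirt6, a chromatin-bound sirtuin, stood at 2.09, 2.31, 2.03 and 1.89 in cultured CD24+ arrays, against 1.50, 1.59, 1.52 and 1.77 in spleen CD24+ arrays. In cultured CD172a+ arrays it stood at 2.52, 2.47, 2.62 and 2.29, against 1.39, 1.35, 1.52 and 1.49 in spleen CD172a+ arrays. Cultured arrays lay above spleen arrays in both subsets. Its changes of 0.49 and 1.04 became 0.027 and 0.61 without centring, so the call in CD24+ cells was lost there.

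The mitochondrial sirtuins did not share a direction. Sirt4 was lower in culture, by 1.91-fold in CD172a+ cells, and Sirt3 was lower in CD24+ cells alone among the calls (-0.37, against 0.09 in CD172a+ cells, not past the threshold). Sirt5 was higher by 0.15 and 0.20, and gave -0.31 and -0.22 without centring. Its call in CD24+ cells was also lost without any 1 of 5 arrays (culture CD24+ KO 1, culture CD24+ WT 1, spleen CD24+ KO 2, spleen CD24+ WT 1 and spleen CD24+ WT 2). Sirt7, which sits in the nucleolus, was lower by 1.39-fold and 1.43-fold.

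The LSD demethylases remove the methyl mark that KMT2 enzymes place on histone H3. Kdm1a was higher in culture by almost equal amounts in both subsets, 0.82 ± 0.067 in CD24+ and 0.82 ± 0.067 in CD172a+ cells, and by 0.36 and 0.39 without centring. Kdm1b, which acts on transcribed gene bodies, read 1.22, 2.16, 1.44 and 0.71 in cultured CD24+ arrays and 0.83, 0.88, 0.58 and 0.93 in spleen CD24+ arrays. Its CD172a+ values were 2.11, 2.08, 2.09 and 1.79 in culture and 0.51, 0.59, 0.66 and 0.70 in spleen. The cultured CD24+ arrays spread most and overlapped those of spleen, through WT 2, while the CD172a+ groups did not overlap. The differences were 0.58 ± 0.19 (SE; limma adjusted p = 0.0151) and 1.40 ± 0.19 (SE; limma adjusted p = 2.62e-05), and 0.12 (not called) and 0.98 without centring. In CD24+ cells the call was lost without any 1 of 3 arrays (culture CD24+ WT 1, culture CD24+ KO 2 and spleen CD24+ WT 1), with changes of 0.34 to 0.82 as arrays were left out and 0.34 without culture CD24+ KO 2.

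The JmjC demethylases held both the highest change of all members, that of the Y-linked Kdm5d, and the lowest, that of Kdm7a in CD172a+ cells: of 16, 8 were higher and 3 lower in cultured CD24+ cells, and 7 were higher and 7 lower in cultured CD172a+ cells. Kdm7a removes repressive methyl marks from histone H3. It read 0.33, 0.31, 0.44 and 0.40 in cultured CD172a+ arrays, against 3.90, 3.81, 3.90 and 3.75 in spleen CD172a+ arrays. In CD24+ cells it read 2.90, 2.22, 3.01 and 3.24 in culture and 3.44, 3.58, 3.41 and 3.74 in spleen. Groups did not overlap in either subset, but the cultured CD172a+ arrays lay far below all the rest, 11.1-fold below spleen (-3.47 ± 0.13, limma adjusted p = 1.72e-10), against 1.63-fold in CD24+ cells (-0.70 ± 0.13, limma adjusted p = 2.66e-04). A further Kdm7a probe set gave -2.76 in CD172a+ and -0.04 in CD24+ cells, and with the mean of both sets (-0.37) the call in CD24+ cells was lost.

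Kdm5b, which erases the KMT2 mark at promoters, and Kdm6b, which erases the Polycomb mark, were lower in culture as well. Kdm5b read -1.38, -1.15, -1.57 and -1.54 in cultured CD24+ arrays and -0.05, -0.44, -0.01 and 0.01 in spleen CD24+ arrays. The CD172a+ arrays read -1.39, -1.19, -1.39 and -1.44 in culture and 1.21, 0.73, 1.09 and 1.39 in spleen, so that cultured arrays of both subsets sat together and spleen CD172a+ arrays were highest. The differences were -1.29 ± 0.12 (SE; limma adjusted p = 8.13e-07) and -2.46 ± 0.12 (SE; limma adjusted p = 2.01e-09). Kdm6b read 2.89, 2.70, 2.73 and 3.03 in cultured CD24+ arrays, against 3.78, 4.00, 3.94 and 4.21 in spleen CD24+ arrays. Among CD172a+ cells the levels were 2.15, 2.49, 2.44 and 2.23 in culture, against 4.32, 4.39, 4.37 and 4.61 in spleen. In the activated cultures it was 2.21-fold and 4.27-fold lower than in spleen cells at homeostasis, -1.14 ± 0.11 (SE; limma adjusted p = 1.05e-06) and -2.09 ± 0.11 (SE; limma adjusted p = 3.74e-09), with no overlap of arrays. In the same arrays the 18 measured activation genes were higher in culture in 16 cases in CD24+ and 15 in CD172a+ cells, Il6 by 6.27 and 6.93.

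Of the autosomal JmjC genes, Kdm4a and Kdm2b rose most in CD24+ cells, and Kdm2a and Kdm2b in CD172a+ cells. Kdm4a, which acts on both heterochromatin and gene body methyl marks, read 3.73, 3.20, 3.59 and 3.57 in cultured CD24+ arrays and 1.93, 1.86, 1.84 and 2.08 in spleen CD24+ arrays (1.59 ± 0.15, limma adjusted p = 1.11e-06). In CD172a+ cells it read 2.69, 1.96, 3.15 and 2.86 in culture and 1.92, 1.84, 1.94 and 2.08 in spleen (0.72 ± 0.15, limma adjusted p = 8.00e-04). Of the cultured CD172a+ arrays only KO 2 reached into the spleen values, and without centring the change was 0.29 and not called. Kdm2b, which binds CpG islands and brings a PRC1 complex to them, read 3.90, 3.76, 3.91 and 3.84 in cultured CD24+ arrays, against 2.33, 2.44, 2.19 and 2.49 in spleen CD24+ arrays. Cultured CD172a+ arrays read 3.36, 3.48, 3.30 and 3.11, against 2.19, 2.32, 2.12 and 2.10 in spleen CD172a+ arrays. The changes, 1.49 ± 0.075 (SE; limma adjusted p = 4.30e-09) and 1.13 ± 0.075 (SE; limma adjusted p = 4.11e-08), came with no overlap of arrays. Kdm2a, its paralogue, read 3.03, 3.34, 3.18 and 2.94 in cultured CD24+ arrays and 2.18, 2.09, 2.07 and 2.36 in spleen CD24+ arrays (0.94 ± 0.088, limma adjusted p = 1.08e-06). Cultured CD172a+ arrays of Kdm2a read 3.70, 3.70, 3.81 and 3.62, against 2.34, 2.40, 2.39 and 2.30 in spleen CD172a+ arrays (1.35 ± 0.088, limma adjusted p = 3.86e-08). All cultured arrays lay above all spleen arrays, and the rise was larger in CD172a+ cells by the test of the difference (-0.40), a call lost without any 1 of 10 of the 16 arrays. Kdm3b was higher by 0.98 and 0.71. Kdm3a, Kdm4b, Kdm4c and Kdm4d were lower in cultured CD172a+ cells, by 1.77-fold for Kdm3a and 1.65-fold for Kdm4c, and did not pass in CD24+ cells. Kdm5a was higher in CD24+ cells (0.40; -0.060 without centring). Kdm8 was higher in CD172a+ cells (0.19; -0.24 without centring), a call lost without any 1 of 6 arrays (culture CD172a+ KO 1, culture CD172a+ WT 1, culture CD172a+ KO 2, spleen CD172a+ KO 2, spleen CD172a+ WT 1 and spleen CD172a+ WT 2).

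Kdm2b, higher in culture, and Kdm5b, lower in culture, both had a promoter window with an NF-kB consensus match, and these 2 windows are shown. They were picked by hand, for their opposite changes, from 8 members with such a match. Whether NF-kB had a part in any of these changes was not tested. Of the others, Kdm1b, Sirt2, Sirt5 and Sirt6 were higher in culture in both subsets. Dnmt3b was lower in both, and Sirt3 was lower in CD24+ cells alone among the calls. Windows were RefSeq GRCm38.p6 sequence from 250 bases before to 50 bases after an annotated start, 5′ to 3′ on the gene's strand, with the match in capitals. The Kdm2b window, 1 of 4 for this gene, lay at chr5:122988458-122988757 on the minus strand, and the Kdm5b window at chr1:134559928-134560227 on the plus strand.
Kdm2b: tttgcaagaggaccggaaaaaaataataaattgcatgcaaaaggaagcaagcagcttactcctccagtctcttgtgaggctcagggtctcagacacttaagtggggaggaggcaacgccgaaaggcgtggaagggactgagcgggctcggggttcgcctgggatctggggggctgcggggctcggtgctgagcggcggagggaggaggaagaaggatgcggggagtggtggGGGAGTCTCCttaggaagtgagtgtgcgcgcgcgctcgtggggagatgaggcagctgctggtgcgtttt
Kdm5b: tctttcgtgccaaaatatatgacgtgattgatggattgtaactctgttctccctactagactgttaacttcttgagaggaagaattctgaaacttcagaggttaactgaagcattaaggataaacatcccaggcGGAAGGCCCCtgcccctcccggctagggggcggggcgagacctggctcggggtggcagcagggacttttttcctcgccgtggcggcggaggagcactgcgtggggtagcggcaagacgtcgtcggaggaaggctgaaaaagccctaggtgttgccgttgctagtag
The consensus was searched on both strands as GGG, A or G, any 2 bases, 2 bases that are each C or T, and CC. It occurred in 8 of 59 member windows (13.6%) and in 8.46% of all 32851 windows of this length. The interferon-stimulated response element, searched as a pair of GAAA half-sites in tandem with any 2 bases between them, was in 0 of the 59 windows, which cover 41 of the 51 members, and in 3.44% of all windows. The gamma-activated site TTCNNNGAA was in 6 of 59 (10.2%) and in 8.30% of all windows. These are matches of letters within 300 bases and not sites of binding.

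The members on the sex chromosomes are Kdm5d on the Y and Hdac6, Hdac8, Kdm5c and Kdm6a on the X. Whether sex had a part in the values of the X-linked ones was not tested. Kdm5d, the Y-linked paralogue of Kdm5c, read 1.07, 1.02, 0.93 and 0.95 in cultured CD24+ arrays and -2.26, -2.31, -2.30 and -2.22 in spleen CD24+ arrays. Its CD172a+ values were 1.02, 0.66, 1.08 and 0.86 in culture and -2.05, -2.25, -2.13 and -2.23 in spleen. No arrays overlapped, and the changes were 9.60-fold and 8.40-fold, 3.26 ± 0.080 (SE; limma adjusted p = 1.05e-11) and 3.07 ± 0.080 (SE; limma adjusted p = 1.12e-11). The Y-linked Uty (3.13 and 2.99) and Eif2s3y (5.11 and 5.03) moved with it, so this call cannot be told apart from sex. Kdm5c, X-linked and known to escape X inactivation, was higher in culture, at 2.88, 2.98, 2.86 and 2.78 in cultured CD24+ arrays, against 1.87, 1.73, 1.67 and 2.03 in spleen CD24+ arrays. The CD172a+ arrays read 3.02, 2.85, 3.08 and 2.93 in culture and 2.02, 2.17, 1.99 and 2.05 in spleen. All 8 cultured arrays exceeded all 8 spleen arrays, by 1.05 ± 0.081 (SE; limma adjusted p = 1.88e-07) and 0.91 ± 0.081 (SE; limma adjusted p = 5.70e-07). Kdm6a, the X-linked eraser of the Polycomb mark that also escapes inactivation, read 2.56, 2.94, 2.68 and 2.36 in cultured CD24+ arrays and 2.35, 2.24, 2.10 and 1.91 in spleen CD24+ arrays (0.49 ± 0.11, limma adjusted p = 0.00147). Among CD172a+ cells the levels were 2.82, 2.61, 2.38 and 2.70 in culture and 2.55, 2.38, 2.40 and 2.27 in spleen and did not pass (0.23 ± 0.11). Arrays overlapped in CD172a+ cells and just missed doing so in CD24+ cells. Without centring its changes were 0.024 and -0.20, neither past the threshold.

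**Figure D2:**
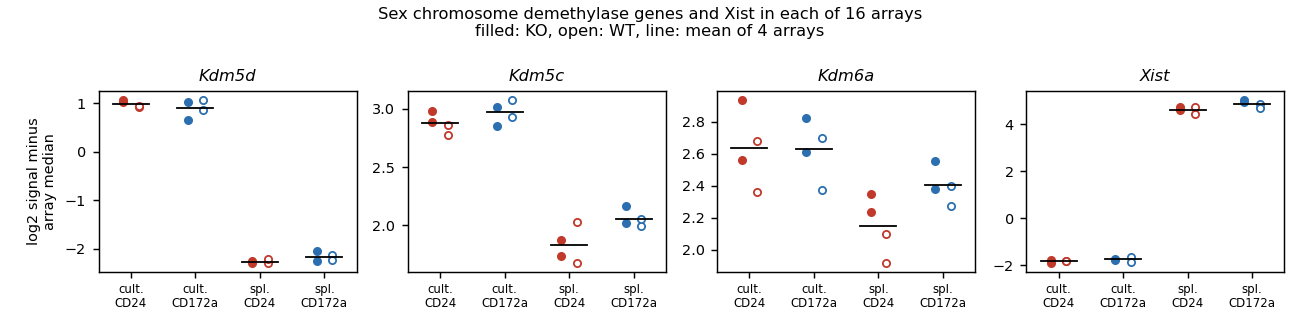
Log2 signal minus array median of Kdm5d, Kdm5c, Kdm6a and Xist in each of the 16 arrays, culture left of spleen. Filled circles are KO, open circles WT, and lines are means of 4 arrays. Kdm5d is near 1 in all culture arrays and below -2 in all spleen arrays, and Xist runs the other way.

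The KMT2 methyltransferases parted by gene. Kmt2c, an enhancer methyltransferase, read 1.21, 0.84, 1.26 and 1.32 in cultured CD24+ arrays and 2.20, 2.13, 2.07 and 2.46 in spleen CD24+ arrays (-1.06 ± 0.094, limma adjusted p = 6.38e-07). In CD172a+ cells it read 0.50, 0.33, 0.63 and 0.60 in culture and 3.03, 3.0, 2.95 and 2.81 in spleen, 5.40-fold lower (-2.43 ± 0.094, limma adjusted p = 3.02e-10). Its arrays did not overlap between sources. Its enhancer paralogue Kmt2d was lower in CD172a+ cells alone among the calls (-0.32 ± 0.085, against 0.18 ± 0.085 in CD24+ cells), and its other probe set gave -0.05 in CD172a+ and 0.47 in CD24+ cells. The promoter enzyme Kmt2a was higher by 0.51 and 0.33, or 0.051 and -0.097 without centring. Its paralogue Kmt2b was higher by 0.42 ± 0.067 in CD24+ and lower by 1.25-fold (-0.33 ± 0.067) in CD172a+ cells, and -0.045 in CD24+ cells without centring. Kmt2e, for which no methyltransferase activity is established, was lower in both (-0.16 and -0.54).

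Ezh2 was higher, and Dnmt1, Dnmt3a and Dnmt3b were lower, in culture. Ezh2 read 4.97, 5.47, 5.23 and 4.90 in cultured CD24+ arrays, against 4.41, 4.42, 4.27 and 4.24 in spleen CD24+ arrays. Its CD172a+ values were 5.34, 5.34, 5.28 and 5.19 in culture and 4.29, 4.38, 4.35 and 4.25 in spleen. Groups did not overlap, and the changes were 0.81 ± 0.097 (SE; limma adjusted p = 1.01e-05) and 0.97 ± 0.097 (SE; limma adjusted p = 1.80e-06). They were 0.35 and 0.54 without centring and 0.32 and 0.54 after quantile normalization. Ezh1, the paralogue more used in cells that do not divide, passed in CD172a+ cells alone (0.25 ± 0.085), but was -0.18 without centring and -0.035 after quantile normalization, and the call was lost without any 1 of 4 arrays (culture CD172a+ WT 1, culture CD172a+ KO 2, spleen CD172a+ KO 2 and spleen CD172a+ WT 1).

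Dnmt1, which copies methylation onto the new DNA strand at replication, read 1.39, 1.71, 1.65 and 1.32 in cultured CD24+ arrays and 2.75, 2.58, 2.52 and 2.63 in spleen CD24+ arrays. The CD172a+ arrays read 1.89, 2.16, 2.00 and 1.56 in culture and 2.39, 2.51, 2.43 and 2.28 in spleen. Cultured arrays lay below spleen arrays in both subsets, by a smaller margin in CD172a+ cells, and the changes were -1.10 ± 0.12 (SE; limma adjusted p = 2.93e-06) and -0.50 ± 0.12 (SE; limma adjusted p = 0.00162). The 23 measured cell cycle genes moved with it: 19 were lower and 1 higher in culture in CD24+ cells (median -1.38), and 21 were lower and 1 higher in CD172a+ cells (median -1.56); their part in the Dnmt1 result was not tested. Dnmt3a, a de novo methyltransferase often mutated in blood cancers, read 1.22, 1.03, 1.31 and 1.20 in cultured CD24+ arrays and 2.39, 2.17, 2.29 and 2.44 in spleen CD24+ arrays. Among CD172a+ cells the levels were 1.31, 1.31, 1.30 and 1.36 in culture and 3.27, 3.18, 3.43 and 3.23 in spleen. The cultured subsets sat close together while spleen CD172a+ arrays were highest, and the changes were -1.13 ± 0.071 (SE; limma adjusted p = 3.07e-08) and -1.96 ± 0.071 (SE; limma adjusted p = 1.71e-10). Dnmt3b was lower by 1.96-fold and 1.61-fold. Dnmt3l, the inactive partner of the de novo enzymes, and the antisense Dnmt3aos did not pass in either subset, and the confidence intervals (95%) of their changes in CD24+ cells were -0.16 to 0.11 and -0.22 to 0.13. No source used here says whether the amplified target keeps strand, so signal of Dnmt3aos and Dnmt3a may not be separate.

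Dnmt1, lower in culture, and Ezh2, higher in culture, are both known E2F targets. They were the 2 of 41 members with a window that held the E2F motif TTTNGCGC on either strand (2 of 59 windows, 3.39%, against 1.38% of all windows), and their windows are shown with the matches in capitals. Dnmt1's window, 1 of 3 for this gene, lay at chr9:20952574-20952873 on the minus strand and held 2 matches, and that of Ezh2 lay at chr6:47594981-47595280 on the minus strand and held 1 (GRCm38.p6).
Dnmt1: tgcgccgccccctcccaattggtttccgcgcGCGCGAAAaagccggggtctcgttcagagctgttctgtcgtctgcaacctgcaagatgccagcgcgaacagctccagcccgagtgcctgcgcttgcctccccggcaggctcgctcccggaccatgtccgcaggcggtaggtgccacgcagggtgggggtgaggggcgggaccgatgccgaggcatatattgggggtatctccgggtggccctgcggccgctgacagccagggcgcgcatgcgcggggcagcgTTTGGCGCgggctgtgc
Ezh2: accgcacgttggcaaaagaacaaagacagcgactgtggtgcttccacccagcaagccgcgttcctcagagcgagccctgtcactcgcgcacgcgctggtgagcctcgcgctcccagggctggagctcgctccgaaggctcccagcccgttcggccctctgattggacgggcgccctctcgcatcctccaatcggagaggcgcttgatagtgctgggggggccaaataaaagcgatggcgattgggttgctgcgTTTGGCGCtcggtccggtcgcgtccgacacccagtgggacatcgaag
The match nearest the 3′ end had the same 8 letters in both windows and lay past the annotated start. Whether E2F had a part in the change of either gene was not tested. Over the member windows the median number of CpG pairs was 21 per 300 bases, against 7 over all windows. The window of Kdm7a, the lowest member change, at chr6:39206724-39207023 on the minus strand, held the most CpG pairs, 65, and none of the 4 motifs searched; it is shown for its CpG content, in lower case throughout.
Kdm7a: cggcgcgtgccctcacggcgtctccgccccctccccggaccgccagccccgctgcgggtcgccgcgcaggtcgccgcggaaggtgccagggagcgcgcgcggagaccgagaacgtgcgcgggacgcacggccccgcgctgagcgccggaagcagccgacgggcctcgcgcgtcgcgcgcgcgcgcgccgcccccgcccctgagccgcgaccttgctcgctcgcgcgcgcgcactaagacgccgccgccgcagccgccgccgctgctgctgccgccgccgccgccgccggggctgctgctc

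The TET dioxygenases did not move together. Tet1 read -0.98, -0.83, -0.90 and -1.0 in cultured CD24+ arrays and 0.90, 0.92, 0.87 and 1.19 in spleen CD24+ arrays. In CD172a+ cells it read -0.88, -0.86, -0.81 and -0.82 in culture and 1.53, 1.60, 1.48 and 1.56 in spleen. It was 3.72-fold and 5.22-fold lower in culture without overlap, -1.89 ± 0.068 (SE; limma adjusted p = 2.38e-10) and -2.38 ± 0.068 (SE; limma adjusted p = 2.32e-11), and both of its other probe sets were lower too. Tet2, the most studied TET gene of blood cells, read 3.26, 3.17, 3.22 and 3.37 in cultured CD24+ arrays and 2.49, 2.72, 2.51 and 2.71 in spleen CD24+ arrays. Its CD172a+ values were 2.92, 2.99, 2.70 and 2.80 in culture and 3.43, 3.45, 3.31 and 3.21 in spleen. It was thus higher in culture in CD24+ cells (0.65 ± 0.068, limma adjusted p = 3.08e-06) and lower in CD172a+ cells (-0.50 ± 0.068, limma adjusted p = 2.74e-05), with no overlap in either, and kept both signs without centring (0.19 and -0.92). Tet3 was 1.82-fold lower in cultured CD24+ cells (-0.86), against -0.22 on its other probe set and -0.54 for their mean. In CD172a+ cells it was -0.18 on the chosen probe set and 0.36 on its other set, 0.095 for their mean, and the call was lost without any 1 of 5 arrays (culture CD172a+ KO 1, culture CD172a+ WT 1, culture CD172a+ WT 2, spleen CD172a+ KO 1 and spleen CD172a+ WT 1).

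**Figure D3:**
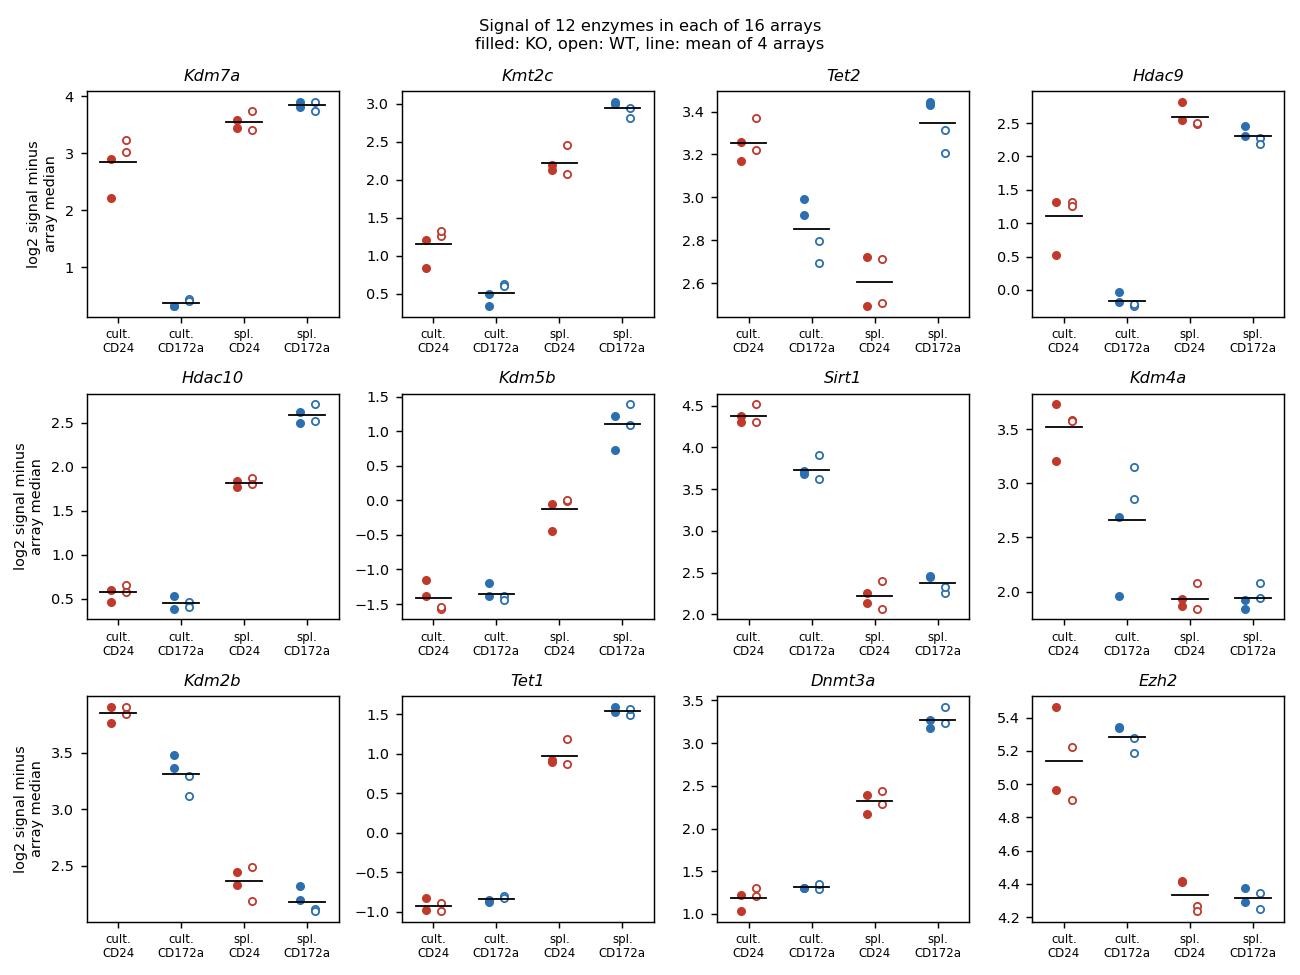
Log2 signal minus array median of 12 enzymes in each of the 16 arrays, culture left of spleen and CD24+ (red) left of CD172a+ (blue). Filled circles are KO, open circles WT, and lines are means of 4 arrays; axes differ between panels. Kdm7a is low in cultured CD172a+ cells alone, Tet2 is highest in spleen CD172a+ and cultured CD24+ cells, and Sirt1 and Kdm2b are high in all cultured arrays.

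Subset differences changed between the sources for 28 of the 51 members, tested as the culture minus spleen change in CD24+ cells minus that in CD172a+ cells, with 19 positive and 9 negative (26.3% of all genes passed, 13.4% positive and 12.8% negative). Whether the members' share stands apart from that of all genes was not tested. Leaving out culture CD24+ KO 2 gave 30 members and leaving out spleen CD24+ KO 2 gave 26. Kdm7a led with 2.77 ± 0.18 (SE; limma adjusted p = 3.90e-07), followed by Kmt2c with 1.37 ± 0.13 (SE; limma adjusted p = 1.12e-05), Kdm5b with 1.17 ± 0.16 (SE; limma adjusted p = 2.14e-04) and Tet2 with 1.14 ± 0.096 (SE; limma adjusted p = 3.74e-06). Other positive values included Hdac10 with 0.90 ± 0.087, Dnmt3a with 0.83 ± 0.10, Hdac5 with 0.74 ± 0.10 and Kmt2b with 0.74 ± 0.094. For Kmt2c, Kdm5b, Hdac10, Dnmt3a and Hdac5 the fall in culture was deeper in CD172a+ cells. Between subsets, Kdm5b, Hdac10, Dnmt3a and Hdac5 passed the threshold in spleen and not in culture. Cultured Kdm5b lay at -1.57 to -1.15 in CD24+ and at -1.44 to -1.19 in CD172a+ arrays. Whether low signal limited its fall was not tested. Negative values were led by Kdm1b (-0.82 ± 0.27), Tet3 (-0.69 ± 0.096) and Dnmt1 (-0.60 ± 0.16). The cDC2 markers moved with the positive ones, 10 of 10 being positive in the same test, with 5 of 10 lower in cultured CD24+ and 9 of 10 lower in cultured CD172a+ cells, and their part in these values was not tested. Further marker lists moved as well. The 6 markers of all cDC averaged 2.76 in cultured and 3.63 in spleen CD24+ cells, and 1.82 in cultured and 3.85 in spleen CD172a+ cells. Those of monocytes and macrophages averaged 0.25 in cultured and 0.50 in spleen CD24+ cells, and -0.19 in cultured and 1.25 in spleen CD172a+ cells. The 10 cDC1 markers averaged 3.53 in cultured and 4.11 in spleen CD24+ cells, and 1.85 in cultured and 1.30 in spleen CD172a+ cells. Among them, Irf8 changed by 4.62 and Wdfy4 by -2.98, culture minus spleen, in CD172a+ cells. The part of these was not tested either.

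In spleen, 13 members were lower in CD24+ than in CD172a+ cells and 3 were higher (14.3% and 13.8% of all genes). Leaving out spleen CD24+ KO 2, the array with the most neutrophil signal, gave 12 and 3. Kdm5b differed most, -1.23 ± 0.12 (SE; limma adjusted p = 5.81e-06), then Dnmt3a at -0.95 ± 0.071 (SE; limma adjusted p = 6.59e-07) and Hdac10 at -0.77 ± 0.061 (SE; limma adjusted p = 1.22e-06), and for each of the 3 no CD24+ array reached a CD172a+ array. Tet2 was lower in CD24+ cells by 1.67-fold and Tet1 by 1.49-fold. Of the KMT2 genes 4 of 5 were lower in CD24+ cells, Kmt2c by 1.66-fold, Kmt2b by 1.61-fold, Kmt2e by 1.53-fold and Kmt2d by 1.23-fold. The call for Kmt2d was lost without any 1 of 4 arrays (spleen CD24+ KO 1, spleen CD172a+ KO 2, spleen CD24+ WT 1 and spleen CD172a+ WT 2), and that for Hdac4 (-0.18 ± 0.059) without any 1 of 7 of the 8 arrays (spleen CD172a+ KO 1, spleen CD24+ KO 1, spleen CD172a+ KO 2, spleen CD24+ KO 2, spleen CD172a+ WT 1, spleen CD24+ WT 1 and spleen CD172a+ WT 2). Tet3 was higher in CD24+ cells, at 2.81, 2.73, 2.64 and 2.77 in CD24+ arrays and 2.58, 2.41, 2.46 and 2.21 in CD172a+ arrays, a difference of 0.32 ± 0.068 (SE; limma adjusted p = 0.00337). Hdac6 read 1.36, 1.26, 1.08 and 1.00 in CD24+ arrays and 0.89, 0.82, 0.79 and 0.94 in CD172a+ arrays, a difference of 0.31 ± 0.061 (SE; limma adjusted p = 0.00191). Dnmt3b read 0.62, 0.57, 0.67 and 0.65 in CD24+ arrays and 0.30, 0.29, 0.44 and 0.41 in CD172a+ arrays, a difference of 0.27 ± 0.044 (SE; limma adjusted p = 5.75e-04). Each of these 3 had its lowest CD24+ array above its highest CD172a+ array. So had Dnmt1, Hdac9, Kdm8 and Sirt2, which were not called, making 7 members in all. For 13 members the spleen CD24+ arrays lay wholly below the CD172a+ arrays. The share of all genes without overlap between the subsets was not counted.

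In culture, 10 members were higher and 8 lower in CD24+ cells (11.6% and 12.3% of all genes). Without culture CD24+ KO 2 the counts were 12 and 10. Kdm7a was 5.55-fold higher in CD24+ cells (2.47 ± 0.13, limma adjusted p = 1.22e-07; 2.64 without KO 2) and Hdac9 was 2.42-fold higher (1.27 ± 0.13, limma adjusted p = 2.82e-05; 1.47 without KO 2). In both genes KO 2 was the CD24+ array nearest to the CD172a+ arrays. Kdm4a, Sirt1 and Kmt2c were also higher, by 0.86 ± 0.15, 0.65 ± 0.085 and 0.64 ± 0.094. Lower in CD24+ cells were Kdm2a, with -0.58 ± 0.088 (SE; limma adjusted p = 4.26e-04), and Sirt6, with -0.39 ± 0.082 (SE; limma adjusted p = 0.00356). Ezh1 was lower too, at 3.39, 3.74, 3.38 and 3.26 in CD24+ arrays and 3.98, 4.09, 3.99 and 3.81 in CD172a+ arrays, a difference of -0.53 ± 0.085 (SE; limma adjusted p = 6.53e-04). Calls for Dnmt1 (-0.39 ± 0.12), Kdm1b (-0.63 ± 0.19) and Kdm3a (0.64 ± 0.16) were lost without any 1 of 4 arrays (culture CD24+ KO 1, culture CD172a+ WT 1, culture CD24+ WT 2 and culture CD172a+ KO 2), of 5 arrays (culture CD172a+ KO 1, culture CD24+ KO 1, culture CD172a+ WT 1, culture CD24+ WT 2 and culture CD172a+ KO 2) and without culture CD172a+ KO 2. Tet2, Kmt2c and Kdm6b were higher in CD24+ cells in culture and lower in them in spleen, Tet3 was the reverse, and Kmt2e was lower in CD24+ cells in both sources.

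**Figure D4:**
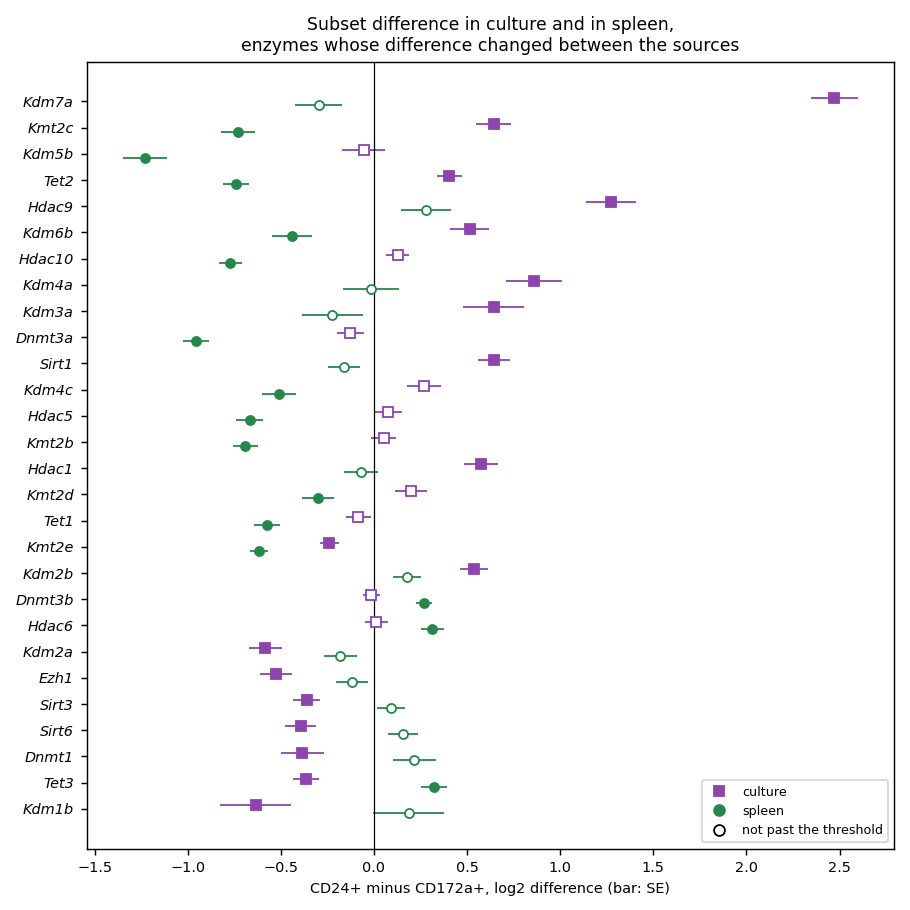
CD24+ minus CD172a+ log2 difference in culture (purple squares) and in spleen (green circles) for the 28 members whose difference changed between the sources, in order of that change. Bars are standard errors and open symbols did not pass the adjusted p of 0.05. Kdm7a reaches 2.47 in culture and is at -0.30 in spleen, and most upper rows lie left of 0 in spleen.

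Loss of Ciita, the transactivator of MHC class II genes, left no enzyme past the threshold in any of the 4 combinations of source and subset. As a check of the labels, H2-Ab1, a class II gene, was at 2.41 to 4.73 in KO culture arrays, against 6.72 to 6.91 in WT culture arrays, and at 3.88 to 4.79 in KO spleen arrays, against 6.60 to 6.69 in WT spleen arrays. The Ciita probe set itself did not separate genotypes in spleen (3.51 to 3.91 in KO, 3.58 to 4.03 in WT), and in culture it was at 0.20 to 2.81 in KO and at 3.24 to 3.92 in WT arrays, past the threshold in neither subset. No source used here says whether it reads the deleted part. Of all genes, 0.01% were higher and 0.0802% lower in cultured CD24+ KO cells, 0% and 0.0552% in cultured CD172a+, 0.00502% and 0.0552% in spleen CD24+ and 0.00502% and 0.0752% in spleen CD172a+ KO cells. Either way, 0.0903% passed in cultured CD24+, 0.0552% in cultured CD172a+, 0.0602% in spleen CD24+ and 0.0802% in spleen CD172a+ cells (limma, adjusted p under 0.05). At an unadjusted p under 0.05, there were 14 of the 204 pairs of member and comparison: 6 in cultured CD24+, 6 in cultured CD172a+, 1 in spleen CD24+ and 1 in spleen CD172a+ cells. The shares of all genes at that p were 7.58%, 6.25%, 4.61% and 5.46% in the same order.

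The enzyme nearest to the threshold was Tet3 in cultured CD172a+ cells, at 2.38 and 2.50 in KO arrays and 2.03 and 2.04 in WT arrays (0.41 ± 0.096, limma adjusted p = 0.396). Kdm4a in the same cells stood at 2.69 and 1.96 in KO arrays and 3.15 and 2.86 in WT arrays (-0.69 ± 0.21, limma adjusted p = 0.622). Hdac6 was above WT in both CD24+ comparisons: 0.51 and 0.68 in cultured KO arrays and 0.28 and 0.32 in cultured WT arrays, and 1.36 and 1.26 in spleen KO arrays and 1.08 and 1.00 in spleen WT arrays. These differences were 0.30 ± 0.086 (SE; limma adjusted p = 0.467) and 0.27 ± 0.086 (SE; limma adjusted p = 0.93). The arrays did not overlap between genotypes there, but they did in spleen CD172a+ cells, and each group held 2 arrays. Dnmt3b was below WT in both CD24+ comparisons, also without overlap. It read -0.36 and -0.42 in cultured KO and -0.25 and -0.34 in cultured WT arrays. In spleen it read 0.62 and 0.57 in KO and 0.67 and 0.65 in WT arrays. The share of all genes without overlap between genotypes was not counted. The changes of all members lay between -0.69 and 0.61. Without culture CD24+ KO 1, so that KO 2 stood alone for the genotype, 5 members passed in cultured CD24+ cells: Kdm7a (-0.91), Kdm3a (-0.78), Hdac9 (-0.76), Hdac6 (0.38) and Kdm1b (1.08), together with 1221 genes in all. Without KO 2 none of the 51 passed.

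Partner and related genes, from lists of known complex members, moved in both directions in culture. Their counts stand beside 47.1% of all genes higher and 29.5% lower in CD24+ cells, and 49.4% higher and 29.5% lower in CD172a+ cells. No list was tested against these shares. The lists were counted with centring alone, which raised each change by 0.46 in CD24+ and by 0.43 in CD172a+ cells. Of 13 histone acetyltransferases, which oppose the deacetylases, 6 were higher and 6 lower in CD24+ cells, and 4 were higher and 7 lower in CD172a+ cells. Ncoa1, a coactivator with acetyltransferase activity, had the largest change there (-2.51 and -2.64). Of 19 measured partners of the deacetylases 8 were higher and 7 lower in CD24+ and 7 and 9 in CD172a+ cells. Tbl1x of the NCoR complex was higher (1.88 and 2.25), and its homologue Tbl1xr1 was lower in CD172a+ cells (-2.49).

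PRC2 partners numbered 4 higher and 4 lower of 10 in CD24+ cells and 3 and 5 in CD172a+ cells. Suz12, the core partner of Ezh2, was higher like Ezh2 (1.88 and 1.75), and Jarid2, which helps PRC2 find its targets, was lower in CD172a+ cells (-2.13). Of 17 PRC1 subunits 7 were higher and 7 lower in both subsets; Pcgf5 was higher by 3.32 and 3.64, and Rnf2, the ubiquitin ligase of PRC1, by 3.06 in CD24+ cells. Partners of the KMT2 complexes were lower in 7 and higher in 4 of 12 in both subsets. Among 21 measured other lysine methyltransferases 8 were higher and 11 lower in both, with Setdb2, an interferon-inducible gene, higher (1.97 and 1.61) and Dot1l lower (-1.47 and -2.26).

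Of 10 arginine methyltransferases 1 was higher and 7 lower in CD24+ cells, and 1 was higher and 5 lower in CD172a+ cells. Prmt5 was lower (-1.65 and -1.12) and Prmt2 higher (1.72 and 1.99). Of 14 partners of DNA methylation 3 were higher and 5 lower in CD24+ and 5 and 6 in CD172a+ cells, with Hells, a remodeller needed for DNA methylation, lower in CD24+ cells (-2.16) and the methyl-CpG reader Mbd2 higher in both (1.41 and 1.51). Other jumonji genes counted 6 higher and 6 lower of 13 in CD24+ and 7 and 5 in CD172a+ cells, led by the Y-linked Uty and by Riox2 (3.16 and 1.71). Of 10 readers of acetyl-lysine 4 were higher and 6 lower in CD24+ and 3 and 5 in CD172a+ cells, Atad2 being lower in both (-0.68 and -1.29).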

How the data were processed

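Values were the deposited log2 signals of 30177 probe sets on 16 arrays; the unit was read from the values, and the authors' background correction, normalization and summarization are not given in the sources used here. RNA was amplified with the Ovation Pico WTA system, per the labels' protocols. Of the probe sets 21789 had 1 gene symbol (21698 through the Entrez ID), 1621 several and 6767 none, and those with 1 gave 19938 genes, each by its probe set with the highest mean (999 genes had more than 1). Each array was centred on the median of these genes, a step set by the rule that chose the enzymes. Arrays of the 2 sources looked normalized as separate sets. One limma 3.58.1 fit in R 4.3.3 (8 group means, 8 residual and 3.75 prior degrees of freedom) gave all comparisons, with 2-sided p-values adjusted by Benjamini-Hochberg over all genes and a threshold of 0.05. Each mouse gave both subset arrays; same-mouse arrays correlated, after removing group means, at 0.393 in culture KO, 0.205 in culture WT, 0.202 in spleen KO and -0.0957 in spleen WT, across genes, which are not independent replicates. Their number limits the precision of array values.

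Per-array values were named for the 6 highest and 6 lowest called members of each culture comparison, up to 5 each way per subset comparison, up to 8 for the difference between sources and for genotype, and Kdm5c, Kdm5d, Kdm6a, Dnmt1 and Ezh2; listed genes were named by the 2 largest changes. Members, lists and this rule were chosen with earlier results of these data known. In simulated data, culture minus spleen in CD24+ cells over 19938 genes, 82, 96, 100 and 100% of 50 genes each changed by 0.5, 1, 2 and 4 were recovered, with 2 unchanged genes called. The simulation changed few genes, with independent noise and no mouse, subset or sex effects. In the real comparison 76.6% of genes passed, so the simulated shares do not describe it. Alternatives were no centring, quantile normalization, a filter on low genes, the mean of a gene's probe sets, all probe sets, trended robust variance, the mouse as a block, 1 source or 1 subset alone, and leaving out each array. Promoter windows came from RefSeq (GRCm38.p6). The positions are not those of probes. Groups of 2 arrays allowed no test for outlying arrays.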

Additional observations from a re-analysis of the deposited data

Results flagged for a closer look

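For 28 members the culture minus spleen change differed between the subsets by a test of the difference itself (limma, adjusted p under 0.05 over all genes). The change in CD24+ cells exceeded that in CD172a+ cells by 2.77 for Kdm7a, 1.37 for Kmt2c, 1.17 for Kdm5b, 1.14 for Tet2, 0.99 for Hdac9 and 0.95 for Kdm6b. It exceeded it by 0.90 for Hdac10, 0.88 for Kdm4a, 0.87 for Kdm3a, 0.83 for Dnmt3a, 0.81 for Sirt1, 0.78 for Kdm4c and 0.74 for both Hdac5 and Kmt2b. Smaller positive differences were 0.64 for Hdac1, 0.50 for Kmt2d, 0.49 for Tet1, 0.38 for Kmt2e and 0.36 for Kdm2b. The difference was negative for Dnmt3b (-0.28), Hdac6 (-0.30), Kdm2a (-0.40), Ezh1 (-0.41), Sirt3 (-0.45), Sirt6 (-0.55), Dnmt1 (-0.60), Tet3 (-0.69) and Kdm1b (-0.82). Of the 28 calls, 23 remained without any single array. The calls for Ezh1, Hdac6, Kdm1b, Kdm2a and Kdm2b were each lost without at least 6 of the 16 arrays left out in turn. The 2 arrays of a mouse stand on both sides of this difference, and with the mouse as a fixed block 29 members passed.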

How the results depend on the processing

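Without centring, the counts in CD24+ cells became 12 higher and 31 lower and in CD172a+ cells 11 higher and 33 lower. The median change of all genes was then -0.34 and -0.28, against 0.13 and 0.15 with centring and 0.05 and 0.07 after quantile normalization. Values that turned without centring were Hdac11 -0.028, Hdac3 -0.14, Kdm5a -0.060, Kmt2b -0.045 and Sirt5 -0.31 in CD24+ cells, and Ezh1 -0.18, Hdac3 -0.056, Kdm6a -0.20, Kdm8 -0.24, Kmt2a -0.10 and Sirt5 -0.22 in CD172a+ cells. Quantile normalization turned Ezh1 (-0.035) and the mean over a gene's probe sets turned Tet3 (0.095), both in CD172a+ cells. With spleen arrays alone 5 members were higher in spleen CD24+ than CD172a+ cells, against 3. Leaving out 1 array at a time gave 19 to 21 higher and 20 to 21 lower in CD24+ culture, 17 to 19 and 25 to 26 in CD172a+ culture, 3 to 4 and 11 to 15 for the subsets in spleen, 9 to 12 and 6 to 10 for the subsets in culture, 24 to 30 for the difference between sources, and 0 to 5 for genotype in cultured CD24+ cells. The mouse as a replicate block gave 21 and 20, 19 and 26, 4 and 15, 13 and 9, and 29 members in the same order, and 0 for genotype, so no count moved by over 1.5 times. With 2 arrays a group, sources that read as different sexes and may have been normalized apart, small changes in culture and genotype effects could not be resolved.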
